A study of Mus musculus with 12 samples.

Results

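The genes described here encode phosphoinositide kinases, enzymes that add a phosphate to the inositol ring of membrane lipids. The set holds 10 genes of the 19937 that a transcript cluster of the array names alone: Pik3ca, Pik3cb, Pik3cd and Pik3cg, the class I phosphoinositide 3-kinase (PI3K) catalytic subunits; Pik3c2a and Pik3c2b of class II; Pi4k2a and Pi4k2b, the type II phosphatidylinositol 4-kinases; and Pi4ka and Pi4kb, the type III ones. Members were chosen by symbol, with the transcript cluster of highest mean level over the 12 arrays taken for each gene. Each gene had 1 such transcript cluster, so no choice between probes had to be made and no second measurement of a gene was at hand. The family was picked out because Pik3c2b and Pi4k2b stood among the genes of lowest p in the comparison of knockout with wild type; their differences are therefore given as a description, with no test.

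RNA came from lineage-depleted bone marrow of the hind legs of 12 mice, 6 E4bp4-/- (knockout) and 6 E4bp4+/+ (wild type), with 1 GeneChip Mouse Gene 1.0 ST array per mouse. E4bp4, also called Nfil3, is a basic leucine zipper transcription factor known mostly as a repressor and needed for natural killer cells to form. In both genotypes, cells bearing Ter119, GR1, CD11b, B220, CD2 or NK1.1 had been removed with magnets, which enriches for stem and progenitor cells. Markers of other cells, such as erythroid cells and megakaryocytes, were still high, as given below. The share of each cell type was not measured. Age, sex, strain and the deleted part of the gene are not given in the sources used here. Sex is read below from Y-linked genes only. Levels are log2 values from RMA (robust multi-array average), and a difference is always knockout minus wild type on that log2 scale.

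Phosphatidylinositol can be phosphorylated at several positions of its ring, and each product marks a membrane. Type II and type III 4-kinases make phosphatidylinositol 4-phosphate at the Golgi, endosomes and plasma membrane, the first step towards the lipid that class I PI3K uses. Class I enzymes turn that lipid into PIP3 below activated receptors, which recruits kinases such as AKT and BTK; the delta and gamma catalytic subunits are mainly found in blood cells. Class II enzymes make 3-phosphorylated lipids on endocytic and endosomal membranes and lack the regulatory subunit of class I.

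E4bp4 binds sites of the form TTACGTAA or TTATGTAA, the latter read as TTACATAA on the opposite strand, so the 250 bases before each transcription start were searched on both strands. Promoters of the genes with the largest differences are shown because the series asks which genes E4bp4 regulates. Sequences are from RefSeq, build GRCm38.p6, plus strand, at chr1:133045762-133046011 for Pik3c2b and chr5:52741324-52741573 for Pi4k2b. Capitals mark a match to either site with at most 1 letter different.
Pik3c2b: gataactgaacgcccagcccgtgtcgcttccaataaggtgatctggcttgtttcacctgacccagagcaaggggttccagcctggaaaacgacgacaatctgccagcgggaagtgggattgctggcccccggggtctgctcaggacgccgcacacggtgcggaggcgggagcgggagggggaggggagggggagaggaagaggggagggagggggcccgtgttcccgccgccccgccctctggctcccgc
Pi4k2b: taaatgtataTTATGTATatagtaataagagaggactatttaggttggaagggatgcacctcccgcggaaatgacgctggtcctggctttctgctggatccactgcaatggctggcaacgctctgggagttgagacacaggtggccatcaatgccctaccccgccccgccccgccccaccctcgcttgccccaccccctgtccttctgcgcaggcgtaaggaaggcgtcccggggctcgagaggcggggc
The Pi4k2b window holds 1 such match, TTATGTAT, beginning 240 bases before the start, and the Pik3c2b window holds none. All 10 genes had a window, 14 windows in all since some genes have several starts. The exact sites were in 0 of these 14 windows, against 0.931% of all 32851 windows of the same length. With 1 letter different, 3 of the 14 windows had a match (Pi4k2b, Pi4kb and Pi4ka), against 15.7% of all windows. A match is a string of letters and not a measured binding site, and these windows do not cover sites farther away.

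The arrays were alike in scale, with medians from 6.50 to 6.62 and correlations between arrays from 0.986 to 0.995. Nfil3 itself ran from 6.34 to 6.92 in the knockout and from 6.94 to 7.66 in the wild type. Of the markers of the removed cells, Klrb1c, which encodes NK1.1, lay below the 20th percentile of every array. Itgam, which encodes CD11b, ran from 6.87 to 8.93 in the knockout and from 6.81 to 7.91 in the wild type. The 8.93 was on knockout replicate 1. Without that array the highest level was 8.02 and the difference in means 0.052. Knockout replicate 1 stood apart in the mean of 8 neutrophil markers, 10.5 there against at most 9.04 on the other arrays. The mean of 3 Y-linked genes (Uty, Kdm5d and Eif2s3y) was 7.35 on that array, against at most 4.48 on the others. By these genes it alone held RNA of a male, so sex was not balanced between the genotypes. Results that rest on knockout replicate 1 are given with and without it, except the counts and medians of the pathway lists. Of 29541 transcript clusters tested in limma, 0 (0%, so none of the 10 genes either) had a Benjamini-Hochberg adjusted p under 0.05 and 4391 (14.9%) an unadjusted p under 0.05.

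Pik3c2b encodes the beta isoform of class II PI3K. Its level in the knockout had a lowest value of 7.69, a median of 7.76 and a highest value of 7.88. In the wild type the lowest was 7.37, the median 7.42 and the highest 7.58. The groups did not overlap: all knockout arrays were above wild type replicate 3, the highest wild type array. Means were 7.78 ± 0.0775 (SD, n = 6) and 7.45 ± 0.0913, a difference of 0.33 ± 0.0514 (SE), or 1.26-fold higher in the knockout. The knockout arrays lay wholly above the wild type for 0.619% of all transcript clusters tested; since this contrast drew Pik3c2b out, nothing is read from that share. Without knockout replicate 1 the difference was 0.33, and without both arrays numbered 1 it was 0.32.

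Pi4k2b encodes the beta isoform of type II phosphatidylinositol 4-kinase, which moves between the cytosol and membranes. Its knockout arrays had a lowest level of 8.11, a median of 8.23 and a highest of 8.35, and its wild type arrays 8.39, 8.53 and 8.57. The groups did not overlap here either, though knockout replicate 6 and wild type replicate 4 lay only 0.038 apart. The means were 8.23 ± 0.0873 (SD, n = 6) and 8.51 ± 0.0676, a difference of -0.27 ± 0.0485 (SE), or 1.21-fold higher in the wild type. The knockout lay wholly below the wild type for 0.650% of transcript clusters, a share from which again nothing is read. Knockout replicate 1 had the lowest Pi4k2b level of all; without that array the difference was -0.25, and without both arrays numbered 1 it was -0.24.

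**Figure D1:**
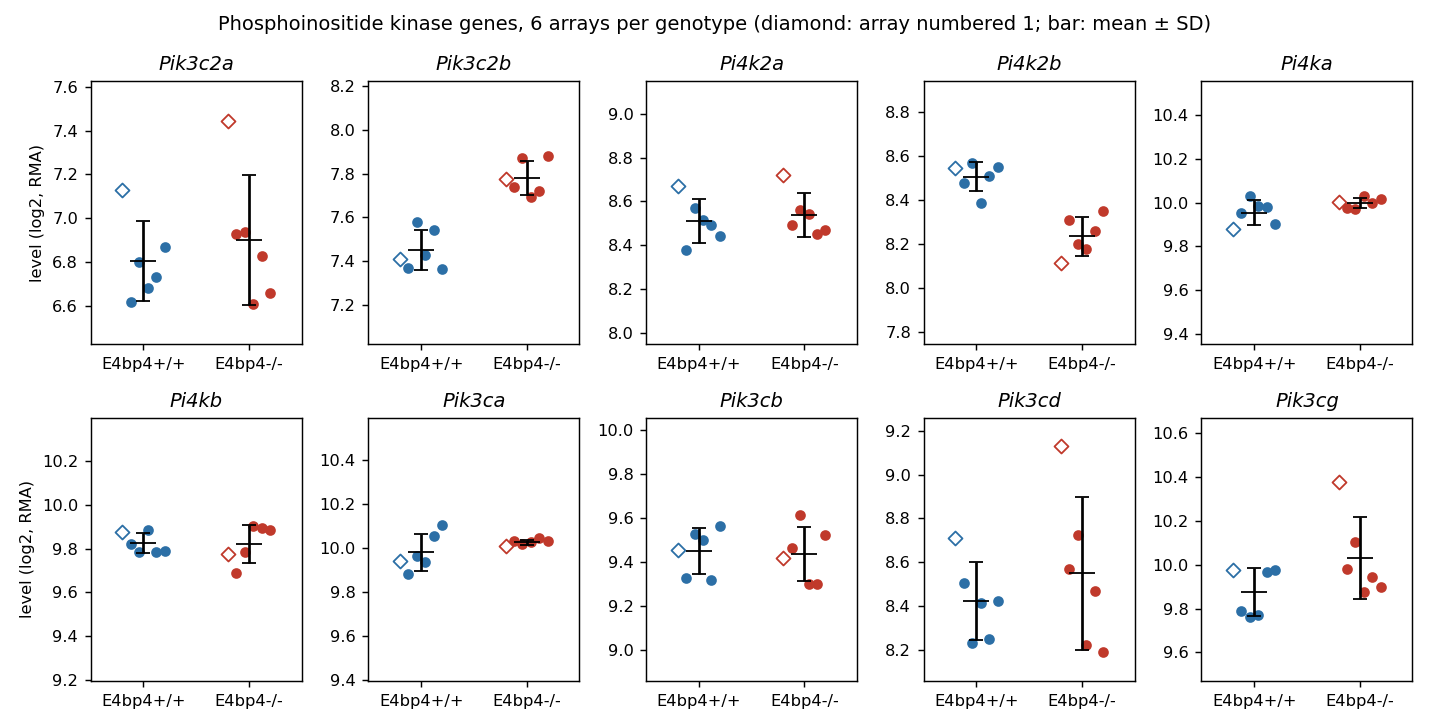
Level (log2, RMA) of each phosphoinositide kinase gene on each array, by genotype; points are arrays, diamonds the arrays numbered 1, and bars the mean ± SD of 6 arrays. Each panel spans the same range of log2 units, placed on its own gene. Pik3c2b and Pi4k2b have groups that do not overlap, and the diamond of the knockout is the top point for Pik3c2a, Pi4k2a, Pik3cd and Pik3cg.

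The closest relatives of both genes had groups that overlapped. Pik3c2a, the other class II isoform, which acts with clathrin in endocytosis, ran from 6.61 to 7.44 in the knockout (median 6.88) and from 6.62 to 7.13 in the wild type (median 6.77). The arrays of both genotypes overlapped over almost their whole range, with knockout replicate 1 on top and wild type replicate 1 next. The difference of Pik3c2a was 0.10 ± 0.131 (SE), with a 95% interval from -0.19 to 0.38 and a limma adjusted p of 0.761. Without knockout replicate 1 it was -0.013.

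Pi4k2a, the type II 4-kinase of the Golgi and endosomes, ran from 8.45 to 8.72 in the knockout (median 8.52) and from 8.38 to 8.67 in the wild type (median 8.50). These ranges overlapped, and both arrays numbered 1 were again the highest of their genotype. The difference of Pi4k2a was 0.03 ± 0.0583 (SE), with a 95% interval from -0.10 to 0.15 and a limma adjusted p of 0.853. Without knockout replicate 1 it was -0.0087, and with every array shifted to a common median -0.012. That shift lowered the difference of every gene by the same amount.

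The type III 4-kinases had groups that overlapped, and Pi4ka varied little. Pi4ka, which makes the 4-phosphate pool of the plasma membrane, ran from 9.97 to 10.03 in the knockout and from 9.88 to 10.03 in the wild type, with medians of 10.001 and 9.97. All 6 knockout arrays lay inside the wild type range. Its difference was 0.04 ± 0.0349 (SE), with a 95% interval from -0.03 to 0.12 and a limma adjusted p of 0.568; it was 0.029 without wild type replicate 1 and 0.0042 with every array shifted to a common median. Pi4kb, a Golgi enzyme recruited by ACBD3, ran from 9.69 to 9.90 in the knockout (median 9.84) and from 9.79 to 9.89 in the wild type (median 9.81). The wild type range lay inside that of the knockout. The difference of Pi4kb was -0.0014 ± 0.0446 (SE), with a 95% interval from -0.10 to 0.10 and a limma adjusted p of 0.993.

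Among class I genes, Pik3ca and Pik3cb encode the widely expressed alpha and beta catalytic subunits. Pik3ca ran from 10.01 to 10.04 in the knockout (median 10.03) and from 9.88 to 10.11 in the wild type (median 9.95), so that the knockout arrays lay inside the wild type range. Its SD was 0.0117 among knockout arrays and 0.0836 among wild type arrays; this contrast in spread was noticed in the values and not tested. The difference of Pik3ca was 0.05 ± 0.0409 (SE), with a 95% interval from -0.04 to 0.14 and a limma adjusted p of 0.615; it was 0.027 without wild type replicate 2 and 0.0061 with every array shifted to a common median. Pik3cb ran from 9.30 to 9.61 in the knockout (median 9.44) and from 9.32 to 9.57 in the wild type (median 9.48), again overlapping. The difference of Pik3cb was -0.01 ± 0.0651 (SE), with a 95% interval from -0.15 to 0.13 and a limma adjusted p of 0.947.

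Within genotype, Pik3cd, Pik3c2a and Pik3cg had the widest spread of the family over all 12 arrays; for Pik3cg this rested on knockout replicate 1, since the SD of its knockout arrays was 0.188 with that array and 0.0889 without it, below the 0.138 of Pik3cb. Pik3cd, the delta subunit, ran from 8.19 to 9.13 in the knockout (median 8.52) and from 8.23 to 8.71 in the wild type (median 8.42). Knockout replicate 1 held the 9.13, and 8.72 was the highest level on the rest of the knockout arrays. The difference of Pik3cd was 0.13 ± 0.146 (SE), with a 95% interval from -0.19 to 0.44 and a limma adjusted p of 0.711, and it was 0.011 without knockout replicate 1. Pik3cg, the gamma subunit, which answers to G protein-coupled receptors, ran from 9.88 to 10.38 in the knockout (median 9.96) and from 9.76 to 9.98 in the wild type (median 9.88). Its highest level was again on knockout replicate 1, with 10.10 as the highest on the rest. The difference of Pik3cg was 0.16 ± 0.0839 (SE), with a 95% interval from -0.03 to 0.34 and a limma adjusted p of 0.404. It was 0.086 without knockout replicate 1 and 0.11 without both arrays numbered 1.

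**Figure D2:**
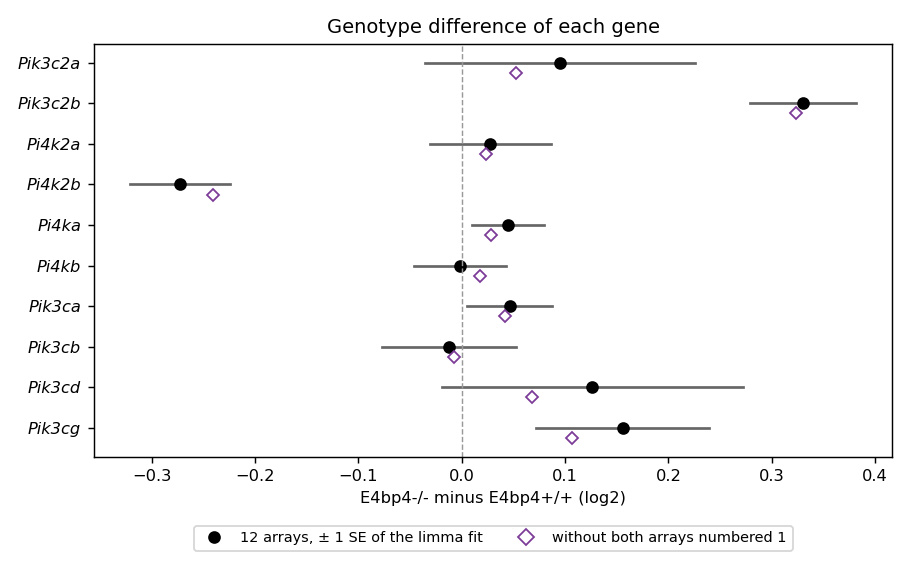
Difference of each gene, knockout minus wild type (log2), as filled points with ± 1 SE of the limma fit over 12 arrays, and without both arrays numbered 1 as open diamonds. Pik3c2b lies at 0.33 and Pi4k2b at -0.27, and the other 8 genes lie between -0.01 and 0.16.

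By count, 7 of the 10 genes had a higher mean in the knockout and 3 a lower one, with a median difference of 0.045, and 6 to 9 were higher under other settings; of all transcript clusters tested, 55.9% were higher, with a median of 0.015. Without Pik3c2b and Pi4k2b, 6 of 8 were higher, and the median was 0.045 as well. Of those 8, 0 had an unadjusted p under 0.05 in limma, against 14.9% of all transcript clusters, 8.47% higher and 6.39% lower in the knockout. The smallest limma adjusted p among them was 0.404, that of Pik3cg. The type II pair, Pi4k2a and Pi4k2b, and the class II pair, Pik3c2a and Pik3c2b, each held 1 gene with separate groups and 1 without; whether the genes of a pair differ in their response was not tested, because the pairs were known for it.

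The p that drew out Pik3c2b and Pi4k2b used the size of each gene's own spread within genotype, but not whether genes deviated together on the same arrays. The deviation of each array from its genotype mean was correlated between genes over the 12 arrays, 45 pairs in all, with permutation of the arrays within genotype (two-sided, 100000 resamples). The highest correlations were those among Pik3c2a, Pik3cg and Pik3cd. Pik3c2a and Pik3cg had a Pearson r of 0.882 (permutation p = 0.00097, adjusted 0.0418) and a Spearman rho of 0.881 (permutation p = 0.00073, adjusted 0.0329). Without knockout replicate 1 and wild type replicate 1, the arrays farthest out for Pik3c2a, r was 0.692. This pair passed the adjusted threshold by both coefficients.

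Pik3c2a and Pik3cd had an r of 0.881 (permutation p = 0.00186, adjusted 0.0418) but a rho of 0.748 (permutation p = 0.0143, adjusted 0.161), and r was 0.624 without the same arrays. Pik3cd and Pik3cg had an r of 0.813 (permutation p = 0.00542, adjusted 0.0793) and a rho of 0.755 (permutation p = 0.00948, adjusted 0.161), with r at 0.558 without knockout replicates 1 and 6. Pi4k2a followed Pik3c2a with an r of 0.784 (permutation p = 0.00705, adjusted 0.0793) and a rho of 0.559 (permutation p = 0.0751, adjusted 0.422). Pi4k2a had an r of 0.60 with Pik3cd and of 0.624 with Pik3cg (permutation p = 0.0467 and 0.0436, adjusted 0.300 for both), and a rho of 0.350 and 0.287 (permutation p = 0.295 and 0.386, adjusted 0.653 and 0.695). These relations of Pi4k2a rested on the arrays numbered 1: without them r was 0.219 with Pik3c2a, -0.159 with Pik3cd and 0.021 with Pik3cg. Of the 45 pairs, 2 passed an adjusted p of 0.05 by Pearson's r and 1 by both coefficients.

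Correlations of Pik3c2b and Pi4k2b with the other members did not pass an adjusted p of 0.05. Within genotype their own r was 0.263 and their rho 0.217 (permutation p = 0.416 and 0.518, adjusted 0.824 and 0.798), and r was -0.158 without knockout replicate 6 and wild type replicate 3. Pik3c2b and its class II relative Pik3c2a had an r of -0.0187 and a rho of 0.140 (permutation p = 0.957 and 0.681, adjusted 0.958 and 0.905), and r was 0.163 without both arrays numbered 1. Pi4k2b and its type II relative Pi4k2a had an r of -0.333 and a rho of -0.322 (permutation p = 0.315 and 0.334, adjusted 0.824 and 0.653), and r was -0.214 without both arrays numbered 1. With 12 arrays, relations of moderate size may go undetected.

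**Figure D3:**
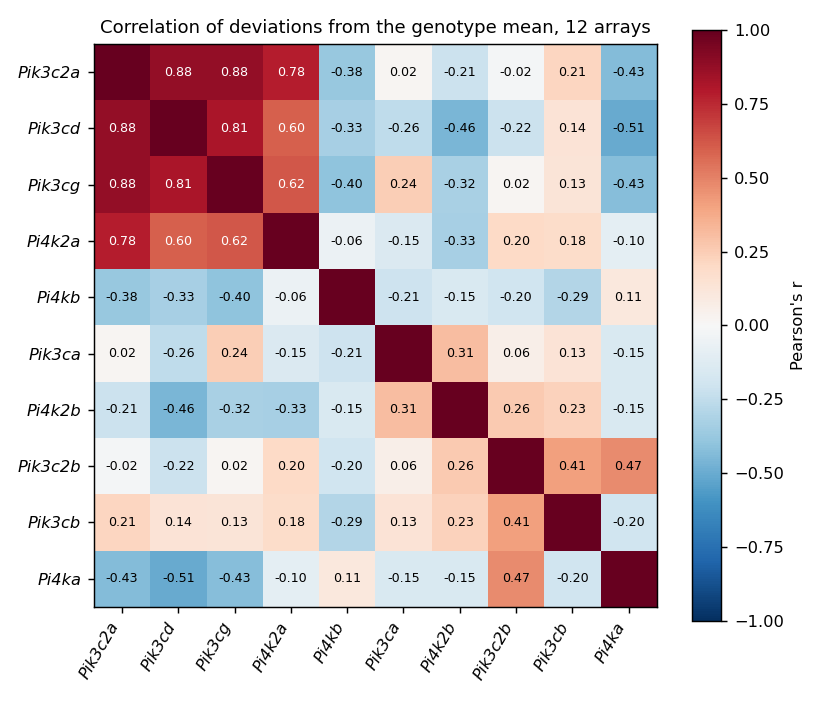
Pearson's r between the deviations of 2 genes from their genotype means over 12 arrays, as colour and number. Pairs among Pik3c2a, Pik3cd and Pik3cg have values from 0.81 to 0.88. Pi4k2a has 0.60 to 0.78 with these, which without the arrays numbered 1 come to -0.159 to 0.219, while Pik3c2b and Pi4k2b have none above 0.47.

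In bulk RNA, more cells of a type and more RNA per cell cannot be told apart, so the same deviations were set beside the mean level of cell type marker lists, 13 lists by 10 genes, 130 relations. Pik3cd followed the monocyte and macrophage list (Csf1r, Cd68, Mrc1, Adgre1 and Ccr2), with an r of 0.923 (permutation p = 0.00024, adjusted 0.0312) and a rho of 0.853 (permutation p = 0.00262, adjusted 0.170). Without knockout replicates 1 and 4 its r was 0.818, and without both arrays numbered 1 it was 0.790. Pik3c2a had an r of 0.907 with the same list (permutation p = 0.00096, adjusted 0.0523) and a rho of 0.867 (permutation p = 0.00149, adjusted 0.170), or an r of 0.735 without knockout replicates 1 and 4. Pik3cg had an r of 0.845 (permutation p = 0.00838, adjusted 0.0901) and a rho of 0.783 (permutation p = 0.00481, adjusted 0.208), or an r of 0.532 without those arrays. The relations of these genes were not confined to monocyte markers. Pik3c2a had an r of 0.863 with dendritic cell markers (adjusted permutation p = 0.0523), 0.805 with stem and progenitor markers (0.0525), 0.825 with endothelial markers (0.0581) and 0.812 with basophil and mast cell markers (0.0639), with unadjusted permutation p from 0.00129 to 0.00362, rho from 0.671 to 0.762 (adjusted 0.209 for each) and r from 0.529 to 0.610 without both arrays numbered 1. Pik3cd had an r of 0.809 with dendritic cell markers (adjusted permutation p = 0.0667), 0.798 with neutrophil markers (0.0901) and -0.803 with megakaryocyte and platelet markers (0.0639), with unadjusted permutation p from 0.00393 to 0.00901 and rho of 0.678, 0.720 and -0.720 (adjusted 0.209 for each). Without both arrays numbered 1 these r were 0.509, 0.518 and -0.487. The lists share arrays, and whether the relation with one list is stronger than with another was not tested. Pik3cd with the monocyte and macrophage list was the 1 relation of 130 past the adjusted threshold by Pearson's r, and 0 passed by both coefficients.

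The monocyte and macrophage list averaged 7.34 to 8.88 over knockout arrays and 7.29 to 7.95 over wild type arrays, and all 5 of its measured genes had higher means in the knockout. Knockout replicate 1 held the 8.88, and the highest of the remaining knockout arrays was 7.90. Without that array 2 of the 5 were higher and 3 lower (Cd68, Adgre1 and Ccr2), and the list mean was 7.58 in the knockout against 7.60 in the wild type, in place of 7.80 against 7.60. Cd68, a lysosomal protein of macrophages, was at 10.06 on knockout replicate 1, and Csf1r, the receptor of macrophage colony-stimulating factor, at 10.09. The part of these cells in the knockout means of Pik3cd, Pik3c2a and Pik3cg was not tested, beside the values without that array given above.

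**Figure D4:**
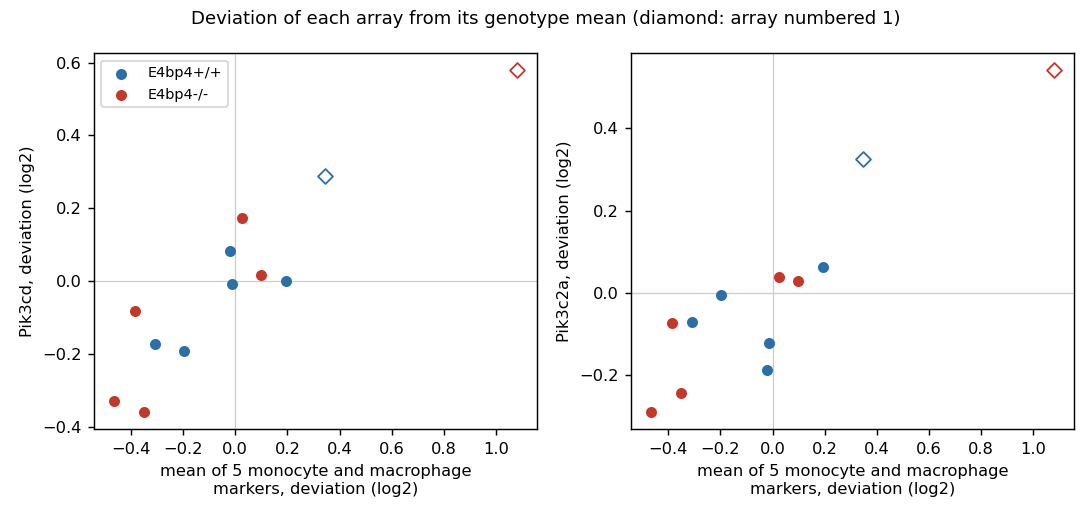
Deviation of Pik3cd (left) and Pik3c2a (right) from the genotype mean against that of the mean of 5 monocyte and macrophage markers (log2), with 1 point per array and diamonds for the arrays numbered 1. Arrays with higher markers have higher levels of both genes (r of 0.923 and 0.907), and knockout replicate 1 lies far to the upper right.

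Besides monocytes, 4 cell type lists had every measured gene on 1 side between genotypes, and each was set beside Pik3c2b and Pi4k2b in the same way. Stem and progenitor markers had higher means in the knockout for 8 of 8 measured genes. Their list means ran from 8.02 to 8.19 there and from 7.82 to 7.99 in the wild type. With all 12 arrays, this was the only one of the 14 lists whose array means did not overlap between genotypes. Basophil and mast cell markers were higher for 6 of 6, with list means from 9.10 to 10.32 in the knockout and from 8.95 to 10.10 in the wild type. Knockout replicate 1 held the 10.32. Without it the highest knockout list mean was 9.96, and the difference went from 0.28 to 0.16. This list shares Kit with the stem and progenitor list. Megakaryocyte and platelet markers had higher means in the knockout for 7 of 7 measured genes, with list means from 9.84 to 10.73 there and from 9.68 to 10.28 in the wild type. Knockout replicate 1 held the 9.84. Without it the knockout list means began at 10.45, so this list did not overlap between genotypes either, and its difference went from 0.43 to 0.55. Erythroid markers had lower means for 9 of 9, from 10.76 to 11.18 in the knockout and from 10.99 to 11.39 in the wild type. The erythroid count was 7 of 9 lower without knockout replicate 1, and the other 3 counts were the same.

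Within genotype, Pik3c2b and the stem and progenitor list had an r of 0.240 and a rho of 0.427 (permutation p = 0.468 and 0.190, adjusted 0.734 and 0.476), and Pi4k2b and that list an r of -0.381 and a rho of -0.350 (permutation p = 0.246 and 0.290, adjusted 0.535 and 0.563). These r were 0.147 and -0.318 without knockout replicate 1 and wild type replicate 2. With the basophil and mast cell list Pik3c2b had an r of 0.101 and a rho of 0.371 (permutation p = 0.758 and 0.256, adjusted 0.849 and 0.512), and Pi4k2b an r of -0.0044 and a rho of 0.203 (permutation p = 0.990 and 0.555, adjusted 0.990 and 0.834). Without knockout replicate 4 and wild type replicate 1 these r were 0.017 and -0.319. Pik3c2b and the megakaryocyte list had an r of 0.401 and a rho of 0.210 (permutation p = 0.211 and 0.534, adjusted 0.499 and 0.834), with r at 0.457 without knockout replicate 1 and wild type replicate 2. Pi4k2b and that list had an r of 0.209 and a rho of -0.147 (permutation p = 0.560 and 0.670, adjusted 0.790 and 0.889), with r at -0.464 without the same arrays. Pi4k2b and the erythroid list had an r of 0.649 and a rho of 0.503 (permutation p = 0.0374 and 0.124, adjusted 0.194 and 0.375), with r at 0.535 without both replicates 6, and Pik3c2b and that list an r of -0.0959 and a rho of -0.168 (permutation p = 0.755 and 0.615, adjusted 0.849 and 0.875), with r at -0.196. The part of these cells in the differences of Pik3c2b and Pi4k2b was not tested.

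The genes most like Pik3c2b within genotype, among 19277 single-gene transcript clusters, were Gm10851 (r = 0.891), Zfp869 (0.874), Csn2 (0.854), Ddx5 (0.849) and Znhit3 (0.839). Those most like Pi4k2b were Tarbp2 (r = 0.881), Eif2ak1 (0.870), Agpat4 (0.855), Ormdl2 (0.838) and Serpina12 (0.819). Likeness was Pearson's r over 12 arrays after removal of the genotype means, given as a description without a p. Between genotypes the genes like Pik3c2b differed by -0.10 (Znhit3) to 0.07 (Gm10851), and those like Pi4k2b by -0.20 (Agpat4) to 0.05 (Serpina12). Csn2, Gm10851 and Serpina12 had means from 5.07 to 5.75, close to the 20th percentile of the arrays (4.93 to 4.99).

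Other genes of phosphoinositide signalling were taken from 8 lists written by role, with 139 genes of which 130 were tested. In limma, 0 had an adjusted p under 0.05 and 10 an unadjusted p under 0.05, 4 higher and 6 lower in the knockout. That is 7.69%, below the 14.9% of all transcript clusters. With the replicate number as a block it was 18 genes, or 13.8%, against 17.4% of all transcript clusters. The share of higher calls in that background moved with the scaling: 57.0% as deposited, 46.9% under quantile normalisation and 22.0% with every array shifted to a common median. Rab5a, a GTPase of early endosomes, was the 1 listed gene whose groups did not overlap, against 1.27% of all transcript clusters. It ran from 9.03 to 9.2263 in the knockout and from 9.2265 to 9.39 in the wild type, so the groups all but touched. The difference of Rab5a was -0.16 ± 0.0432 (SE) with a limma adjusted p of 0.184, the smallest of the lists.

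Kinases that use the products of the 4-kinases or act beside them were tested first. Of 8 other phosphoinositide kinases 4 were higher and 4 lower, where 55.9% of all transcript clusters were higher. Their median difference was -0.019 against 0.015 for all transcript clusters. Pip5k1b and Pip5k1a, which turn phosphatidylinositol 4-phosphate into the substrate of class I PI3K, differed by -0.14 ± 0.0565 (SE) and -0.09 ± 0.0374, and Pip4k2b, which acts on the 5-phosphate, by 0.06 ± 0.0569. The last was 0.038 without knockout replicate 4, 0.099 without knockout replicate 1 and 0.024 with every array shifted to a common median. Pik3c2g, the remaining class II gene, lay below the 20th percentile of every array and was not tested. Of 22 partners of the 4-kinases and readers of their product 9 were higher and 13 lower, with a median of -0.0069; Ttc7b, part of the scaffold of Pi4ka, differed by 0.18 ± 0.108, Gga2, a Golgi adaptor, by -0.06 ± 0.0417, and Pitpna, a lipid transfer protein, by 0.07 ± 0.0504. Ttc7b was at 0.097 and Pitpna at 0.047 without knockout replicate 1, and with every array shifted to a common median Pitpna was at 0.032 and Gga2 at -0.10.

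Regulatory subunits and adaptors of class I were higher for 7 of 12 genes, against 55.9% of all transcript clusters. Their median, 0.098, was the highest of the lists, and 0 of them had an unadjusted p under 0.05 in limma. How far that median rests on knockout replicate 1 was not tested. Pik3ip1, an inhibitor of PI3K, differed by 0.26 ± 0.120 (SE), Gab2, a docking protein, by 0.25 ± 0.127, and Irs1, an adaptor of the insulin receptor, by 0.25 ± 0.139. Pik3ip1 was at 0.16 without knockout replicate 1. In the class III complex, which makes phosphatidylinositol 3-phosphate for autophagy, 5 of 8 were higher with a median of 0.0068. Its autophagy subunit Atg14 averaged 7.38 in the knockout against 7.60 in the wild type, which makes a difference of -0.22 ± 0.0676 with a limma adjusted p of 0.214. Rubcn, an inhibitor of that complex, differed by 0.07 ± 0.0459 and Pik3c3, its catalytic subunit, by 0.03 ± 0.0393. With every array shifted to a common median Rubcn was at 0.027 and Pik3c3 at -0.0068, and Pik3c3 was at 0.012 without wild type replicate 4 and 0.020 without knockout replicate 3.

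Readers and kinases downstream of PIP3 were higher for 17 of 22 genes, against 55.9% of all transcript clusters. Their median was 0.063, against 0.015 for all transcript clusters, which became -0.025 with every array shifted to a common median. How far this count and median rest on knockout replicate 1 was not tested. Dapp1, an adaptor that binds PIP3, differed by 0.10 ± 0.0363 (SE), Rheb, the GTPase that activates MTOR, by -0.16 ± 0.0570, and Mtor itself by 0.09 ± 0.0493. With every array shifted to a common median Dapp1 was at 0.061, Mtor at 0.053 and Rheb at -0.20. Phosphatases were higher for 12 of 26, with a median of -0.0097; Inpp5j differed by 0.24 ± 0.0920, Inpp5e, a phosphatase of the primary cilium, by -0.11 ± 0.0519, and Mtmr4, of the myotubularin family, by 0.12 ± 0.0586. Mtmr4 was at 0.076 with that shift, and Inpp5e at -0.076 without both arrays numbered 1. FoxO factors, which AKT keeps out of the nucleus, and their targets were higher for 8 of 14, with a median of 0.0069. Foxo1 differed by 0.08 ± 0.0367 and the sestrin genes Sesn3 and Sesn1 by 0.20 ± 0.0910 and -0.08 ± 0.0463; with the shift Foxo1 was at 0.040 and Sesn1 at -0.12. Endocytic partners of class II PI3K were higher for 5 of 18 and lower for 13, against 55.9% of all transcript clusters higher. Their median was -0.030. Besides Rab5a, Ap2a1, a subunit of the clathrin adaptor, differed by -0.11 ± 0.0499, and Rab11a, of recycling endosomes, by -0.09 ± 0.0438. Of the 24 genes named from these lists, 13 moved by more than 1.5 times under some setting, and none passed the adjusted threshold with all 12 arrays. For Dapp1, Foxo1, Gga2, Mtmr4, Mtor, Rubcn and Sesn1 the shift to a common median was the only such setting. That shift lowered every gene's difference by the same amount, so it moved small differences by the larger factors and says nothing about single genes.

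**Figure D5:**
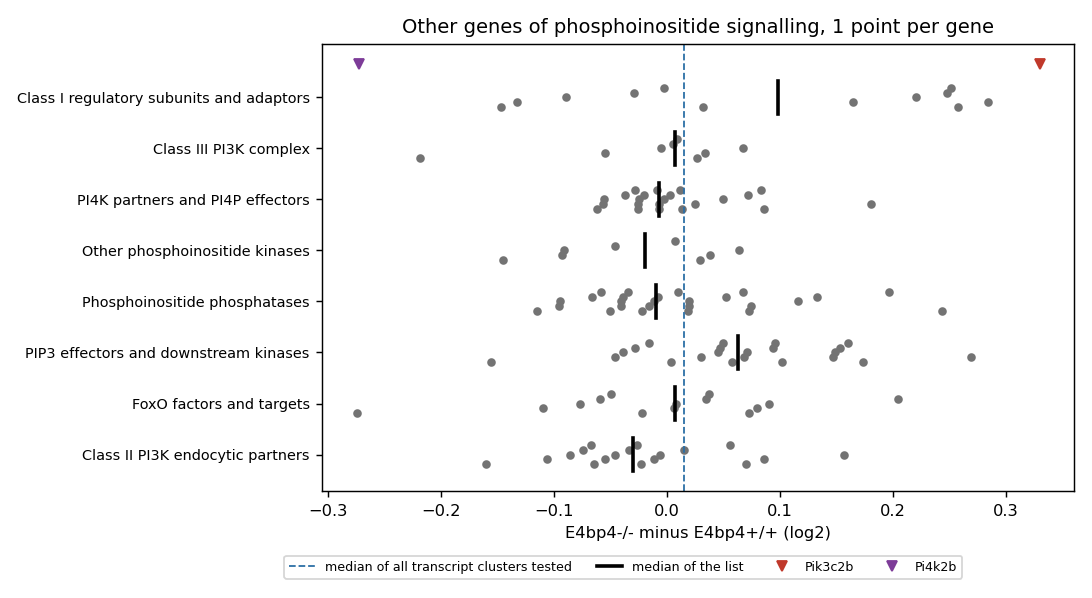
Difference of each tested gene, knockout minus wild type (log2), by list, with 1 point per gene, a bar at the list's median and a dashed line at the median of all transcript clusters tested (0.015). Triangles mark Pik3c2b (0.33) and Pi4k2b (-0.27) for scale; the 130 listed genes lie between -0.27 and 0.28.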

How the data were processed

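The deposited values are log2 levels per transcript cluster, which the authors made in GeneSpring GX version 11 with RMA16, per the series design text. Their log2 scale was inferred from the range, 3.18 to 14.33. The probe annotation and build behind them are not given in the sources used here. RMA pulls all arrays towards 1 distribution and can hide a shift shared by most genes. Groups come from the genotype in the labels, and the number of arrays limits precision. Of 34760 transcript clusters, 29541 were tested, those at or above the 20th percentile of an array on 1 or more of the 12; 21640 name 1 gene.

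The main test was limma (version 3.58.1, R 4.3.3; lmFit and eBayes without covariates), adjusted by Benjamini-Hochberg over all transcript clusters, with a threshold of 0.05. Members and lists were chosen with earlier results of these data known. Named genes were all members, up to 3 of lowest p per list, and the 5 genes most like Pik3c2b and most like Pi4k2b. Permutation p-values of correlations were added after the files were seen. For this comparison, limma on simulated data with independent noise found 75% of the 100 transcript clusters shifted by 0.5 and 96% of the 100 shifted by 1 (log2). It made 13 false calls among the unchanged ones of the 29541. Both shifts were larger than the differences of the 10 genes, so these rates do not give the power for those differences. Settings varied were the filter, scaling, variance prior, array weights, replicate block, a Y-linked covariate, the row per gene and the arrays left out. List genes without a transcript cluster of their own were not analysed here.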

Additional observations from a re-analysis of the deposited data

Results flagged for a closer look

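Single arrays lay far from the others of their genotype for 4 of 88 sets of 6 values of the genes named here, where chance gives about 1 in 20. None was in the 10 phosphoinositide kinase genes. Knockout replicate 1 was the highest knockout array for Rab11a, at 8.63, and the lowest for Ormdl2, at 8.99. Wild type replicate 1 was the highest wild type array for Ttc7b, at 9.26. Wild type replicate 4 was the lowest for Pik3c3, at 8.33.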

How the results depend on the processing

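Under all 21 settings tried Pik3c2b stayed higher and Pi4k2b lower in the knockout, and 0 of the 10 genes passed the adjusted threshold in any; the limma adjusted p of the 8 tested genes ran from 0.310 (Pik3cg) to 0.995 (Pi4k2a). Leave-one-out values were 0.31 to 0.36 for Pik3c2b and -0.30 to -0.25 for Pi4k2b. The differences of Pik3c2a, Pi4k2a, Pi4kb, Pik3cb and Pik3c3, each within 1 SE of 0, changed sign with the setting, so their direction is not settled. Leave-one-out values ran from -0.013 to 0.16 for Pik3c2a, from -0.0087 to 0.059 for Pi4k2a, from -0.018 to 0.025 for Pi4kb, from -0.048 to 0.015 for Pik3cb, from 0.011 to 0.20 for Pik3cd and from 0.086 to 0.19 for Pik3cg. Quantile normalisation gave 0.020 for Pi4kb and 0.0046 for Pik3cb, and median centring -0.012 for Pi4k2a and -0.0068 for Pik3c3. Median centring, the shift to a common median, lowered every gene's difference by the same amount. Array weights gave 0.0021 for Pi4kb, and without both arrays numbered 1 Pi4kb was at 0.018. The Y-linked covariate gave -0.0063 for Pik3c2a, -0.0066 for Pi4k2a and 0.0071 for Pi4kb. This covariate sets only knockout replicate 1 apart, so it acts much like leaving that array out. Without that array the values were -0.013, -0.0087 and 0.0079. Transcript clusters past the adjusted threshold numbered 0 with all arrays, 5 with array weights, 3 with the Y-linked covariate and 0 to 4 when 1 array was left out. The number of the 10 genes higher in the knockout ran from 6 to 9.

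The replicate number as a block raised the listed pathway genes with an unadjusted p under 0.05 from 10 to 18 of 130 (7.69% to 13.8%), while the share of all transcript clusters went from 14.9% to 17.4%. It lost or added 0 calls at the adjusted threshold. Same-numbered arrays of the genotypes correlated by -0.0327 to 0.462 in their deviations, and 3 of 6 knockout arrays correlated best with their own number. These values do not settle whether the numbers pair the mice, and the main test did not pair them. The mean of all transcript clusters of a gene changed nothing, since each gene had 1. Causes of these changes were not tested.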
